A study of Mus musculus with 9 samples.

Results

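The tetraspanin genes described here are Cd9, Cd81, Cd63, Cd82, Cd53, Cd37, Cd151, Tspan3, Tspan4 and Tspan32. They were taken by symbol from the table of counts per gene in mouse alveolar macrophages, the resident phagocytes of the airspaces. All 10 were found, of 31 tetraspanin genes in that table and 27179 genes in all. The members were chosen by family membership and with the measured difference in counts between knockout and wild type already known, so that difference is given for these genes as a description, and the calls of the fit are not tests of the list.

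Polyadenylated RNA was sequenced from macrophages sorted from lungs of mice aged 1 week on a C57BL/6 background. The wild type group has 4 libraries and the Suz12 cKO group 5, called biological replicates in the series text. In the Suz12 cKO mice the gene was deleted conditionally. Suz12 is part of the core of Polycomb repressive complex 2, which methylates histone H3 at silent genes. The Cre driver, the deleted exons, the sex of the mice, any pooling of animals and whether wild type mice carried a floxed allele or Cre were not given in the sources used here.

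Tetraspanins are small proteins that span the membrane several times and expose a large loop with a conserved cysteine motif. They bind integrins, immunoglobulin-family proteins, proteases and each other side by side, and so sort receptors into membrane domains, endosomes and extracellular vesicles. Macrophages use them in adhesion, cell fusion, antigen presentation and the traffic of phagosomes, and Cd9 is among the surface proteins typical of alveolar macrophages.

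Levels are counts per 1e6 counts of the scaled library (CPM), and total counts ranged from 13814799 to 25284693 in wild type and from 18584016 to 45606001 in knockout libraries. Suz12 itself was at 51.7 to 76.6 CPM (wild type) against 11.9 to 21.8 CPM (knockout). Markers of alveolar macrophages were abundant in every library, with Mrc1 at 1793 to 2056 CPM (wild type) against 2055 to 2197 CPM (knockout), and Pparg at 223 to 245 and 255 to 286 CPM. Of 12 such markers 3 were called by edgeR, against 19.9% of all tested genes. Marco was higher (544 to 606 and 771 to 885 CPM), while Car4 (1067 to 1365 and 317 to 804 CPM) and Krt79 (358 to 391 and 204 to 306 CPM) were lower. The wild type libraries held a count for 12396 to 13372 genes and the knockout libraries for 15364 to 16757. Knockout library 3 stood apart from the other knockout libraries, with the lowest Itgax (641 CPM, the others 1734 to 2556) and the lowest Car4 (317 CPM, the others 645 to 804). Nothing in the labels sets that library apart, and results that rest on it are given with and without it.

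The members lie on 6 chromosomes of GRCm38. Cd9 is at chr6:125460266-125494760, Cd82 at chr2:93419102-93462950, Cd53 at chr3:106758861-106790149, Tspan3 at chr9:56135884-56161070 and Cd63 at chr10:128896231-128912822. The other 5 are on chromosome 7. Cd37 stands alone at chr7:45233632-45239340, while Cd151 (chr7:141467362-141471481) and Tspan4 (chr7:141475236-141493427) lie 3755 bases apart. Tspan32 (chr7:143004907-143019486) and Cd81 (chr7:143052750-143067930) lie 33264 bases apart, in the region of the imprinted Kcnq1 domain. Polycomb repressive complex 2 is known to bind CpG-rich promoters, so the 250 bases before the annotated start are shown for 4 genes, with each CpG in capitals. They are the close relatives Cd9 and Cd81, and Cd53 and Tspan32, which are typical of blood cells. The sequences are from RefSeq on GRCm38.p6, 5′ to 3′ on the strand of the gene, and span, as that table places the start, chr6:125494761-125495010 (minus strand), chr7:143052500-143052749 (plus), chr3:106790150-106790399 (minus) and chr7:143004796-143005045 (plus), the last of which runs into the span of Tspan32 above.
Cd9: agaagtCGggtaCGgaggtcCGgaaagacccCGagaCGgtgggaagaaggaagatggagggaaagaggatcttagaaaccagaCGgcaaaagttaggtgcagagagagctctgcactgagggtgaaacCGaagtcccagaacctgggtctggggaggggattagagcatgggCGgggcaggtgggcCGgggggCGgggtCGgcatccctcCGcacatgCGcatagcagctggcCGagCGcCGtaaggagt
Cd81: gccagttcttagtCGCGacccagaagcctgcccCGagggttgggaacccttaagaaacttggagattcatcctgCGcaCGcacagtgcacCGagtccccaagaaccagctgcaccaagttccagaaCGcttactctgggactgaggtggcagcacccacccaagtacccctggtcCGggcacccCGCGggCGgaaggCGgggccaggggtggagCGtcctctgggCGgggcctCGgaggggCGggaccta
Cd53: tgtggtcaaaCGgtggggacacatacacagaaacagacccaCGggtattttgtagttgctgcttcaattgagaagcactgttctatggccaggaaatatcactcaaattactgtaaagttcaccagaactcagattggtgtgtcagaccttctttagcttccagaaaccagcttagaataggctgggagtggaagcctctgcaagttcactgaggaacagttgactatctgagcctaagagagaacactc
Tspan32: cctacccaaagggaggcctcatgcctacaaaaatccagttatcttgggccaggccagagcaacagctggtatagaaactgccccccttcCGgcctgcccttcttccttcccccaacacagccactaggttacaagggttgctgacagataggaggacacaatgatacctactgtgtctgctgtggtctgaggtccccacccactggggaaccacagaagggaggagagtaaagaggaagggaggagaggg

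The Cd9 and Cd81 windows hold 16 CpG each, which is the median of 9827 promoters of tested genes, while Cd53 holds 2 and Tspan32 holds 1. Promoters with 5 or fewer made up 14.8% of the 9827. The other members had 6 (Cd63), 8 (Cd37), 12 (Cd151), 14 (Cd82 and Tspan3) and 24 (Tspan4). The windows of Cd63 and Cd37 lie inside the gene spans given above, not before them. Among the 4 genes lower in knockout the windows ran from 1 to 16 CpG, and among the higher genes from 6 to 14. Of the 10 members only Tspan4 was above the median. The hexamer GAGGAA, the core that PU.1 and related ETS factors bind, was found on either strand in 4 of the 10 windows (Cd63, Cd53, Cd37 and Tspan32) and in 22.8% of the 9827. The GC box GGGCGG was in 6 of 10 and in 58.8%, the E-box CACGTG in 1 of 10 (Cd37) and in 8.58%, and the AP-1 site TGACTCA in none of the 10 and in 2.92%. A match of letters is not a binding site.

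In wild type macrophages 1 tetraspanin outweighed all others. Compared per length, as CPM per 1000 bases of the gene model, Cd9 stood at 4772 ± 486 (SD, n = 4), or 87.6 ± 0.64% (SD, n = 4) of the summed level of the 10 genes. Cd53 followed at 254 ± 19.9, Cd81 at 135 ± 8.81 and Cd82 at 85.6 ± 5.17. Cd63 (58.1 ± 11) and Tspan32 (56.9 ± 9.87) overlapped in their ranges, and so did Tspan4 (9.5 ± 3.05) and Tspan3 (7.37 ± 0.516) at the low end. Cd151 (39.6 ± 4.82) and Cd37 (27.9 ± 2.49) stood between these pairs, and all other neighbours in the order were apart in every wild type library. In knockout macrophages Cd9 was still first (2622 ± 182, SD, n = 5), with 80.3 ± 2.47% of the sum. Cd63 stood at 134 ± 62, in the third place after the fifth in wild type, but without knockout library 3 it was at 106 ± 7.09 (SD, n = 4), in the fourth place behind Cd81 (117 ± 10.7) and level with Cd82 (106 ± 14.2). With all 5 libraries the ranges of Cd53, Cd63, Cd81 and Cd82 ran into each other. Without knockout library 3 Cd53 was apart from the rest, since its lowest library was at 141 and the highest of the others, of Cd81, at 127. The summed level of the 10 genes per length was 5447 ± 519 in wild type and 3272 ± 296 in knockout, and without Cd9 it was 675 ± 36.7 and 649 ± 137. Nearly all of the difference between these sums was in Cd9. Without Cd9 the sum was 885 in knockout library 3 and 544 to 635 in the other knockout libraries. The wild type libraries were at 626 to 711.

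**Figure D1:**
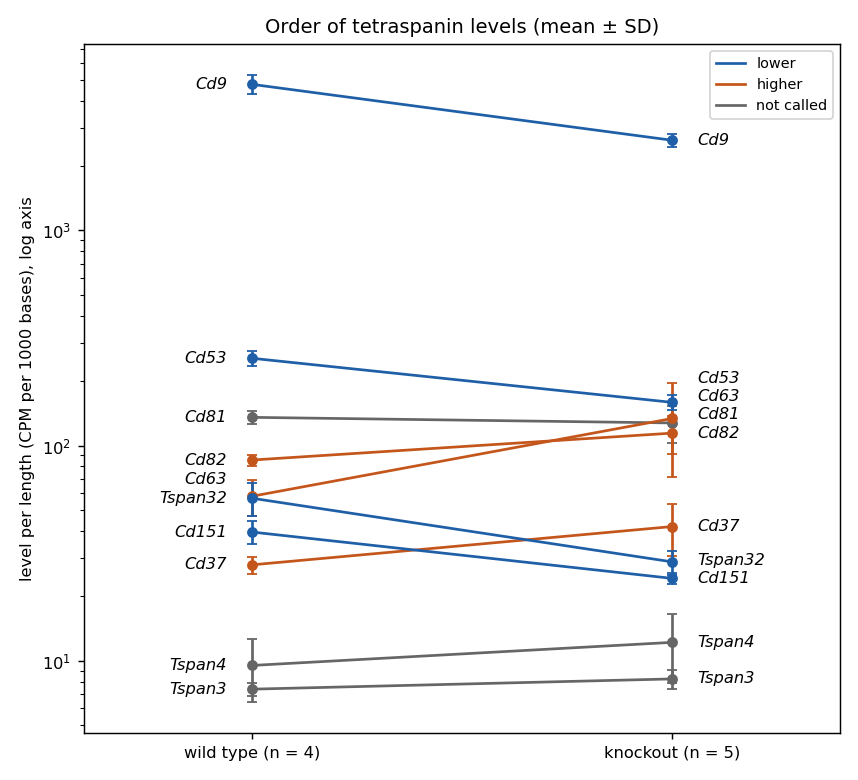
Mean level of each of the 10 tetraspanin genes per length (CPM per 1000 bases, log axis) in wild type (n = 4) and knockout (n = 5) libraries, with bars for the SD and colours for the call in the fit. Cd9 lies far above the others in both groups, and the line of Cd63 rises across those of Cd82 and Cd81 (without knockout library 3 it stays below Cd81), and that of Cd37 across those of Cd151 and Tspan32.

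Of the 10 genes, 4 were called lower in knockout (Cd9, Cd53, Cd151 and Tspan32), 3 higher (Cd63, Cd82 and Cd37), and Cd81, Tspan3 and Tspan4 were not called. A call is an adjusted p under 0.05 in the edgeR quasi-likelihood fit of all 12840 genes that passed the count filter, which the 10 members all did. Of all tested genes 19.9% were called, 11% lower and 8.97% higher, and since the members were chosen with this contrast known, nothing is read from their larger share. The same 7 genes had groups that did not overlap (20.8% of all tested genes). The median log2 fold change of the 10 was 0.04, as it was over all tested genes. In sorted cells measured in bulk, fewer cells of a type and less RNA per cell cannot be told apart.

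Cd9, which gathers integrins and the immunoglobulin-family proteins Ptgfrn and Igsf8 at the cell surface, was the most abundant member. It stood at 5663, 4896, 5949 and 6245 CPM across the wild type group, against 3246, 2907, 3320, 3284 and 2872 CPM across the knockout group. Every knockout library was below every wild type library, and the knockout mean was 55% of the wild type mean (log2 fold change -0.86, SE 0.08, 95% interval -1.04 to -0.68). Cd9 has a short gene model of 1192 bases, and in the tenth of tested genes of 971 to 1451 bases 23.3% were lower and 2.96% higher, with a median log2 fold change of -0.18. With a correction for gene length the log2 fold change of Cd9 was -0.59.

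Tspan32, also known as Tssc6, is restricted to blood cells and has been linked to the control of T cell and platelet responses. It gave 97.8, 85.4, 128 and 104 CPM (wild type) against 55.6, 44.8, 62.4, 50.6 and 49.6 CPM (knockout). The lowest wild type library lay above the highest knockout library, with a log2 fold change of -0.98 (SE 0.12, 95% interval -1.25 to -0.72), the lowest of the members. Cd53, a leukocyte tetraspanin that stabilises adhesion receptors, gave 729, 631, 735 and 757 CPM (wild type) against 459, 418, 483, 468 and 395 CPM (knockout) (log2 fold change -0.68, SE 0.08). Cd151, the partner of laminin-binding integrins, gave 71.4, 71.6, 90.4 and 85.5 CPM (wild type) against 49.6, 46.3, 52.8, 48.2 and 45.8 CPM (knockout) (log2 fold change -0.71, SE 0.10). For both genes the groups were apart, and the knockout means were 62.4% and 60.9% of the wild type means. These 4 lower genes were called lower under each of the 17 alternatives run (other scalings, filters and tools, the length correction, the replicate block and each library left out), with log2 fold changes from -1.06 to -0.85 for Tspan32, -0.93 to -0.59 for Cd9, -0.76 to -0.60 for Cd151 and -0.73 to -0.56 for Cd53.

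**Figure D2:**
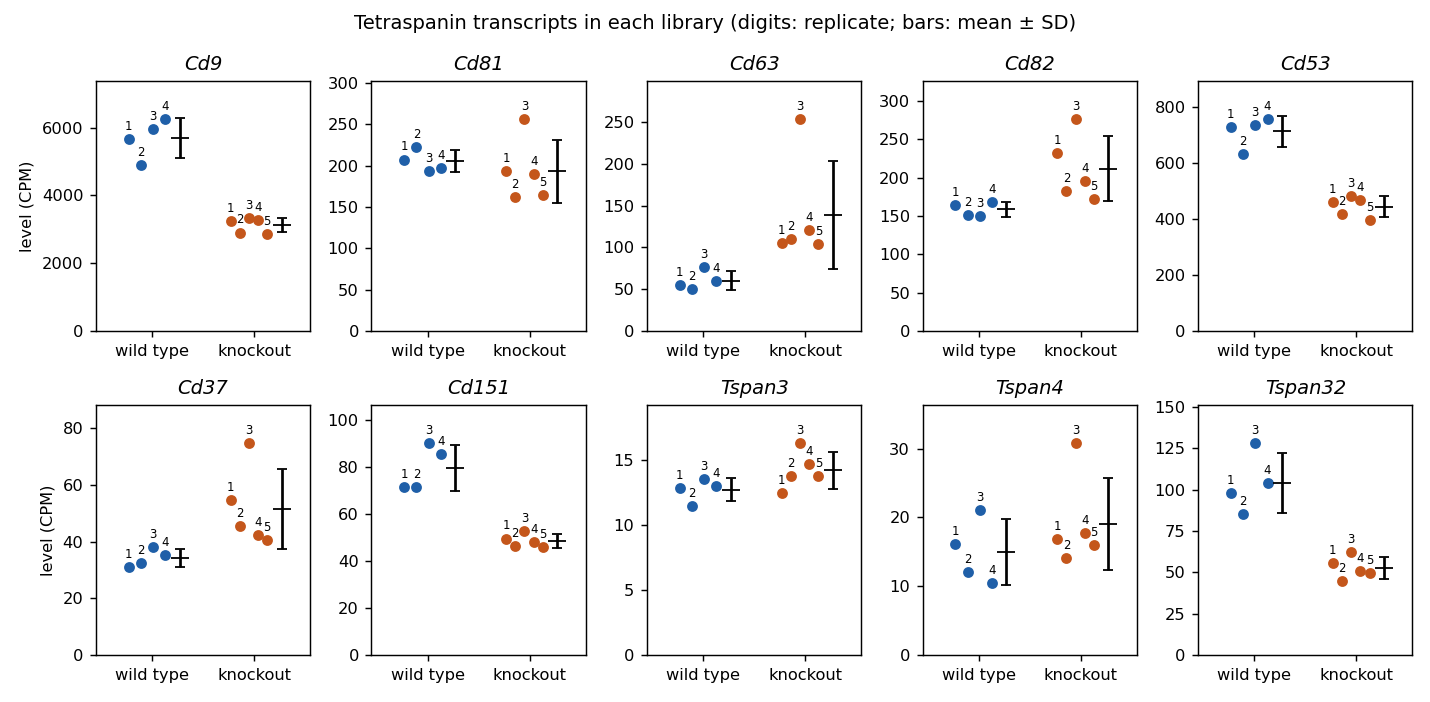
Level in CPM of each of the 10 tetraspanin genes in 4 wild type and 5 knockout libraries, 1 point per library with its replicate number, and the mean with bars for the SD. Cd9, Cd53, Cd151 and Tspan32 are lower in all knockout libraries, and Cd63 in knockout library 3 stands at 253 CPM, above the other knockout libraries.

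Cd63, the tetraspanin of late endosomes and lysosomes and a common marker of extracellular vesicles, was higher in knockout. It gave 54.9, 50.3, 76.4 and 59.6 CPM (wild type) against 105, 111, 253, 120 and 104 CPM (knockout). All knockout libraries were above all wild type libraries, and knockout library 3 was 2.3 times the mean of the other knockout libraries. The log2 fold change was 1.20 (SE 0.29, 95% interval 0.54 to 1.86) with all libraries and 0.88 without knockout library 3, where the knockout mean was 110 ± 7.35 CPM (SD, n = 4) instead of 139 ± 64.3 CPM (SD, n = 5). It was the largest of the 10 in size with all libraries, but without that library Tspan32 (-1.04) was larger and Cd9 (-0.88) as large. Part of the Cd63 transcript recurs in a pseudogene, Cd63-ps, which holds 36.5% of its windows of 50 bases, so reads from those windows could have been assigned to either or dropped. The longest Cd9 transcript shared 1.19% of such windows with other genes, and the other 8 members shared none.

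Cd37 and Cd82 were higher by less. Cd37, a leukocyte tetraspanin that acts on integrin and pattern receptor signalling, gave 31, 32.5, 37.9 and 35.3 CPM (wild type) against 54.6, 45.4, 74.8, 42.3 and 40.5 CPM (knockout). The groups were apart, with a log2 fold change of 0.59 (SE 0.17, 95% interval 0.24 to 0.95), and 0.43 without knockout library 3. Cd37 was not called without wild type library 1 (0.56) or knockout library 1 (0.57). Cd82, known as a metastasis suppressor that restrains integrin and growth factor receptor signalling, gave 165, 151, 150 and 169 CPM (wild type) against 232, 183, 276, 196 and 172 CPM (knockout). Here the lowest knockout library was only just above the highest wild type library, and the log2 fold change was 0.42 (SE 0.13, 95% interval 0.15 to 0.68). Cd82 was not called without wild type library 1, 2, 3 or 4 (0.44, 0.40, 0.40 and 0.45) or without knockout library 1 (0.38), and without knockout library 3 the value was 0.31. Cd63 and Cd37 are short (1037 and 1226 bases) and fall in the same length class as Cd9, so the length correction raised their log2 fold changes, to 1.53 and 0.85.

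The 3 members not called differed in how tightly their values were bound. Cd81, the nearest relative of Cd9, gave 208, 223, 193 and 197 CPM (wild type) against 193, 162, 256, 190 and 165 CPM (knockout). Knockout library 3 held the highest value and 3 knockout libraries lay below all wild type libraries, so the groups overlapped. Its log2 fold change was -0.09 (95% interval -0.35 to 0.17), -0.20 without knockout library 3, 0.02 with library size scaling and 0.07 with the length correction. The level of Cd9 over that of Cd81, both per length, was 35.6 ± 5.62 (SD, n = 4) for wild type against 21 ± 2.56 (SD, n = 5) for knockout, lower in every knockout library. Tspan3, a broadly expressed endosomal and surface tetraspanin, gave 11.5 to 13.6 CPM (wild type) against 12.5 to 16.3 CPM (knockout) (log2 fold change 0.16, 95% interval -0.16 to 0.48). Tspan4, which builds the migrasomes that moving cells leave behind, varied most within wild type, with 16.1, 12.1, 21.1 and 10.4 CPM there and 16.9, 14.1, 30.8, 17.7 and 15.9 CPM in knockout (log2 fold change 0.36, 95% interval -0.17 to 0.90, and 0.13 without knockout library 3). Its coefficient of variation in wild type was 32.1%, against 6.03 to 18.9% for the other 9 members. Intervals of this width do not show that the 3 genes were equal in the groups.

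Knockout library 3 held the highest knockout value of all 10 members, while over all tested genes it was the highest of the 5 in 29.9%. It was 1.08 times the mean of the other knockout libraries for Cd9, 1.11 for Cd53 and Cd151, 1.19 for Tspan3 and 1.25 for Tspan32. The library stood further out for Cd82 (1.41), Cd81 (1.44), Cd37 (1.64), Tspan4 (1.91) and Cd63 (2.3). Without this library the same 7 members were called in the same directions. In wild type, library 3 held the highest value of 6 of the 10 members (29.6% of all tested genes).

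**Figure D3:**
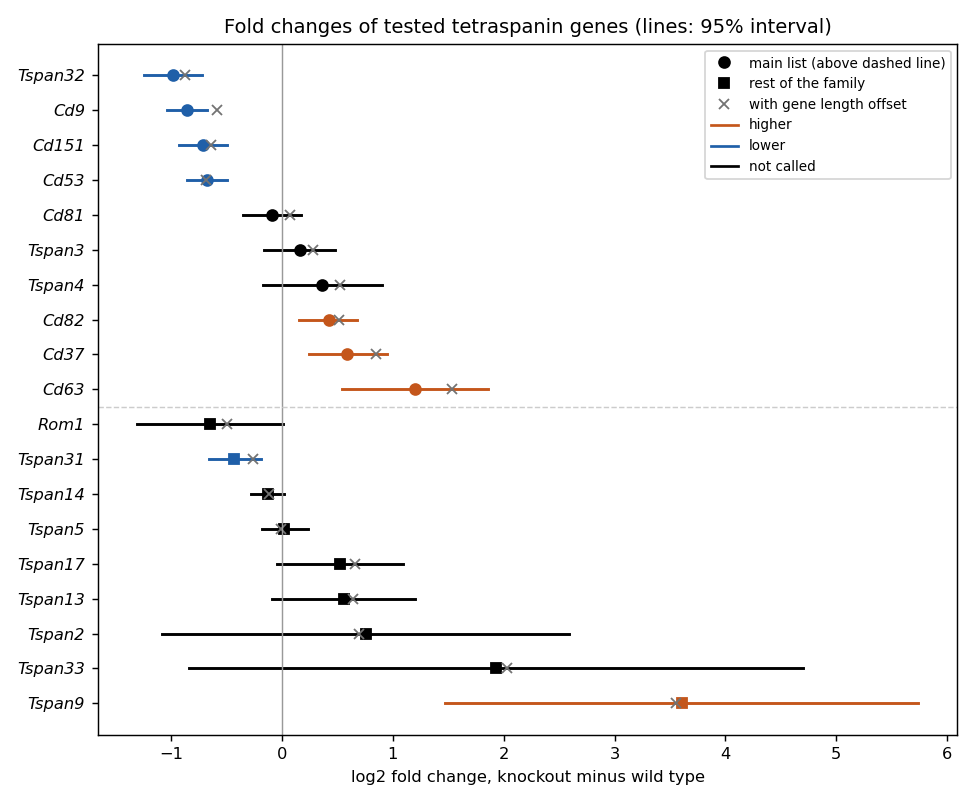
Log2 fold change of knockout minus wild type for the 10 tetraspanin genes (circles, above the dashed line) and the 9 other tested family genes (squares), with lines for the 95% interval and crosses for the value with the length correction. The 4 lower and 3 higher members keep their side of 0 with the correction, and the interval of Tspan9 is the widest of the called genes.

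In each pair of neighbouring members on chromosome 7, 1 gene was called lower and the other was not called. Next to Tspan32 (-0.98), Cd81 was at -0.09, with 95% intervals of -1.25 to -0.72 and -0.35 to 0.17. Next to Cd151 (-0.71), Tspan4 was at 0.36, with intervals of -0.93 to -0.50 and -0.17 to 0.90. Polr2l, a tested gene that was not called, lies between them, 379 bases after Cd151 and 83 bases before Tspan4. The differences within these pairs were not tested. The gene after Cd81, Tssc4, was at -0.35 (SE 0.16, with adjusted p = 0.148 by edgeR), and R74862, between Tspan32 and Cd81, was near the detection limit (0.0801 ± 0.16 CPM (wild type) against 0.634 ± 0.282 CPM (knockout), adjusted p = 0.116 by edgeR). No tested gene lay within 50000 bases of Cd9. In all, 11 tested genes other than members were nearest neighbours within 50000 bases. Of these 1 was higher and 2 were lower by edgeR (8.97% and 11% of all tested genes), and nothing is read from this count. The higher gene, named like the lower ones after its values were seen, was the adaptor Pstpip1 beside Tspan3, which rose from 3.35 ± 3.06 to 11.6 ± 2.59 CPM (log2 fold change 1.77, adjusted p = 0.0101 by edgeR). The lower genes were Sarnp before Cd63 (-0.71, adjusted p = 0.0267 by edgeR) and Cracr2b before Cd151 (-0.36, adjusted p = 0.0467 by edgeR), and neither was called with the length correction or under 5 or more other alternatives. The spans of Cd81 and R74862 overlap by 937 bases, and those of Tspan4 and Chid1 by 292. The span of Cd82, which was called higher, overlaps by 10132 bases that of Gm10804, a gene that was counted but not tested. How reads in these stretches were assigned is not known, since the sources used here do not give the strand setting.

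The other 21 tetraspanin genes of the table were a mixed group, and 9 of them passed the count filter. Of the 9, 1 was higher and 1 lower (22.2%, against 19.9% of all tested genes), with a median log2 fold change of 0.52 against 0.04 over all tested genes. Tspan9, best known from platelets, was at 0, 0, 0.0795 and 0.589 CPM in wild type and rose to 1.63, 2.59, 2.43, 2.12 and 2.03 CPM in knockout. All knockout libraries lay above all wild type libraries (log2 fold change 3.61 with SE 1.0, adjusted p = 0.0198 from edgeR, with 1.84e-04 to 0.0494 over the alternatives). Tspan9 passed the count filter through the knockout group, so nothing is read from its call or from the groups being apart. Wild type library 4 held 14 of the 15 wild type counts, and leaving it out gave a log2 fold change of 6.63. Tspan31, a tetraspanin gene that lies beside Cdk4, fell from 107 ± 18.7 to 79.7 ± 3.43 CPM (-0.43, SE 0.11, adjusted p = 0.0134 by edgeR), with groups that overlapped, and its span overlaps that of Cdk4 by 2 bases and that of A730063M14Rik by 492. Tspan31 was not called without wild type library 4 (-0.34, adjusted p = 0.0561 by edgeR) or with the length correction (-0.26, adjusted p = 0.0735 by edgeR).

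None of the TspanC8 tetraspanins, which carry the sheddase Adam10 to the surface, was called by edgeR with the count filter (0 of 4 tested, and 0 of 4 at an unadjusted p under 0.05), while voom called Tspan33 and DESeq2 called Tspan15. Tspan14 had the highest level per length of the family outside the members. It stood at 218 ± 5.2 CPM (wild type) against 199 ± 5.89 CPM (knockout), and the groups did not overlap although it was not called (-0.13, adjusted p = 0.207 by edgeR). Tspan5 gave 48.9 ± 4.31 and 49.7 ± 2.47 CPM (0.02, adjusted p = 0.892 by edgeR), and Tspan17 gave 9.3 ± 3.62 and 13.4 ± 2.09 CPM (0.52, adjusted p = 0.196 by edgeR). Tspan33 had counts in 1 wild type library only, library 3 (0.715 CPM), against 0.359 to 0.794 CPM in knockout. It had a log2 fold change of 1.93 (adjusted p = 0.338 by edgeR), and 7.24 without wild type library 3 (adjusted p = 0.00848 by edgeR). Tspan33 also passed the count filter through the knockout group, so nothing is read from its calls. Tspan15, which did not pass the filter, had 0 counts in all 4 wild type libraries and 6 to 25 counts in the knockout libraries, at least 11.2-fold higher against a floor of 3 counts over the wild type group. Tspan18, which belongs to another branch of the family, likewise had 0 counts in wild type and 1 to 16 in knockout (at least 5.96-fold higher). DESeq2 called both (adjusted p = 0.00249 and 0.0384), as did edgeR with no filter (adjusted p = 0.0238 and 0.0492). Both genes had counts in the knockout group only, so nothing is read from these calls. These bounds cover counting error only, and the wild type libraries held fewer genes with a count, and the part of that in these values was not tested. The remaining tested genes, Tspan2 (0.76), Tspan13 (0.56) and Rom1 (-0.65), were not called (adjusted p = 0.593, 0.223 and 0.16 by edgeR).

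Most genes of tetraspanin partner proteins were not called. Of 28 tested partner genes 6 were higher and 3 lower (32.1%, against 19.9% of all tested genes), with a median log2 fold change of 0.08. The direct partners of Cd9 and Cd81 were Ptgfrn (247 ± 9.44 and 261 ± 9.14 CPM, log2 fold change 0.08, adjusted p = 0.49 by edgeR) and Igsf8 (219 ± 10.1 and 225 ± 6.37 CPM, 0.04, adjusted p = 0.766 by edgeR). The integrin chains Itgb1 (0.07, adjusted p = 0.549 by edgeR) and Itgb2 (-0.12, adjusted p = 0.266 by edgeR) were not called either. Adam10 had a log2 fold change of 0.25 (adjusted p = 0.0821 by edgeR) and was called with library size scaling (0.36, adjusted p = 0.0259 by edgeR) or without wild type library 2 (0.29, adjusted p = 0.0489 by edgeR).

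Of the laminin-binding integrin chains known as partners of Cd151, Itga6 rose from 35.9 ± 9.7 to 60.5 ± 3.66 CPM (log2 fold change 0.75 with SE 0.15, and adjusted p = 0.00317 by edgeR). Itga7 did not pass the count filter (0.164 ± 0.19 and 0.137 ± 0.121 CPM). Itga3 was without a count (0) in wild type and had 10 to 31 counts in the knockout libraries (0.538 ± 0.203 CPM, at least 14.9-fold higher). The tight junction protein Cldn1 rose from 46.2 ± 6.95 to 130 ± 40.4 CPM (1.49, SE 0.24, adjusted p = 0.00162 by edgeR), and the receptor tyrosine kinase Met from 1.85 ± 1.09 to 5.21 ± 1.06 CPM (1.47, adjusted p = 0.0194 by edgeR). In knockout library 3 Cldn1 was at 67.6 CPM (the other knockout libraries 111 to 165), and without that library its log2 fold change was 1.66. Met was not called without knockout library 5 (1.37, adjusted p = 0.0631 by edgeR) or with the replicate block (1.53, adjusted p = 0.0923 by edgeR). Vcam1 likewise had 0 wild type counts and 4 to 61 knockout counts (0.726 ± 0.419 CPM, at least 20.1-fold higher). Itga3 and Vcam1 are among the 6 genes called higher, but they passed the count filter through the knockout group alone, so nothing is read from their calls. Their bounds cover counting error only, and fewer genes had a count in the wild type libraries. The other called partners, named after their values were seen, were Itgam (0.94), Cd44 (-0.28), Clec7a (-0.32) and Fcer1g (-0.31), and each lost its call under 6 or more alternatives. With library size scaling 8 partner genes were higher and none lower, and with the length correction 5 were higher and 1 lower.

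Most endosome and vesicle genes around Cd63 were not called. Of 25 tested, 3 were higher, 3 lower and 19 not called (24% called, near the 19.9% of all tested genes), with a median log2 fold change of 0.09. Sdcbp, which encodes the adaptor syntenin that binds Cd63 and loads vesicles, fell from 1379 ± 85.3 to 1027 ± 67.8 CPM (-0.42, SE 0.08, adjusted p = 0.00143 by edgeR). The recycling endosome GTPase Rab11a fell from 175 ± 21.2 to 117 ± 7.1 CPM (-0.58, adjusted p = 6.47e-04 by edgeR), and the lysosomal membrane protein Lamp2 from 616 ± 38.9 to 466 ± 25 CPM (-0.40, adjusted p = 0.00181 by edgeR). Vps37b of the ESCRT-I complex rose from 3.21 ± 1.57 to 12.7 ± 2.19 CPM (2.0, SE 0.31, adjusted p = 5.84e-04 by edgeR) and the membrane scaffold Flot1 from 26.7 ± 4.2 to 52.8 ± 14.1 CPM (0.98, SE 0.17, adjusted p = 0.0015 by edgeR). Flot1 was at 77.9 CPM in knockout library 3 and at 45.1 to 47.3 CPM in the other knockout libraries. It was called under all 17 alternatives (log2 fold change 0.80 to 1.10). Ap3b1 also rose (0.40, adjusted p = 0.00266 by edgeR), a gene singled out only once its values had been seen, which encodes a subunit of the adaptor complex that sends Cd63 to lysosomes. The groups of these 6 called genes were apart, as were those of 20.8% of all tested genes, and nothing more is read from this. Lamp1 (0.01), Pdcd6ip (0.07), which encodes Alix, and Tsg101 (-0.26) were not called (adjusted p = 0.95, 0.54 and 0.165 by edgeR). With library size scaling 7 genes were higher and 3 lower, and with the length correction 5 were higher and 3 lower.

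**Figure D4:**
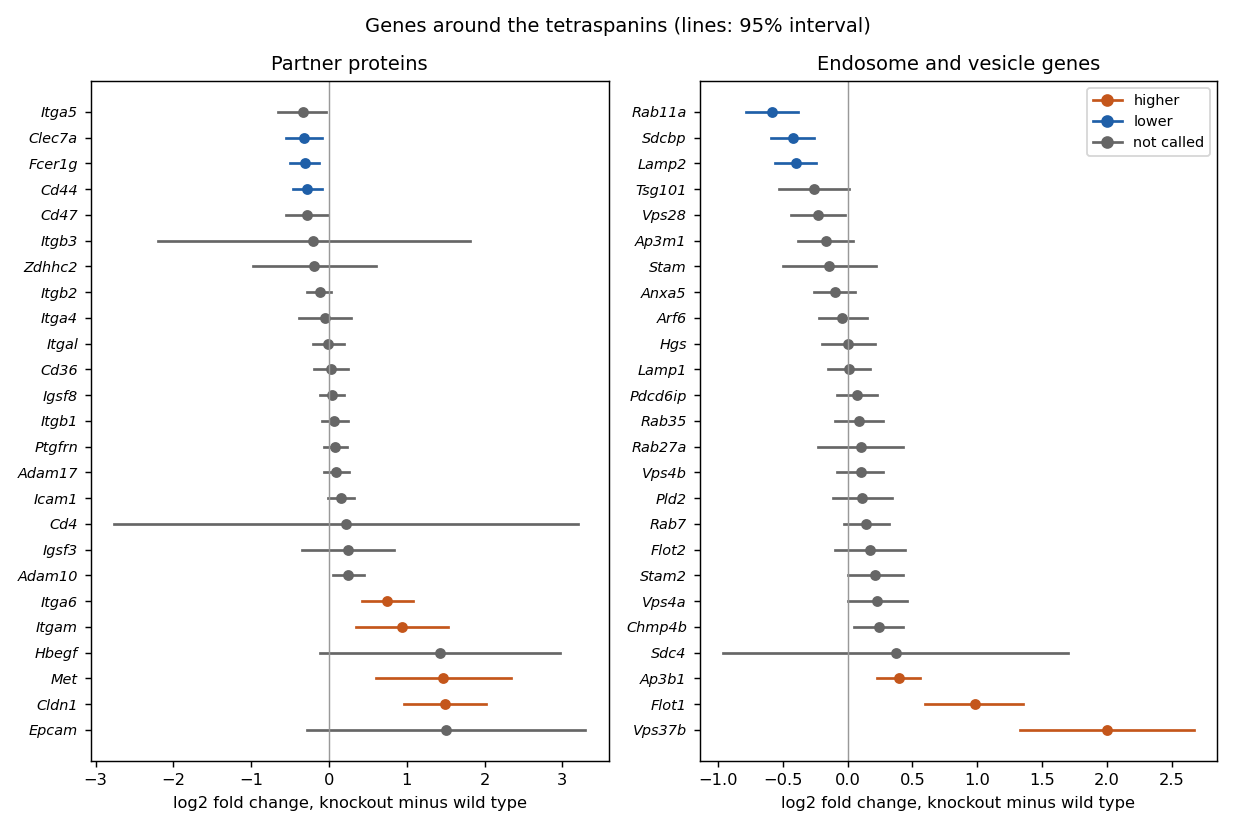
Log2 fold change of knockout minus wild type for partner genes that were tested and are reported here (left) and endosome and vesicle genes (right), with lines for the 95% interval and colours for the call. Itga3 and Vcam1, with 0 counts in wild type, are left out, and most of the other genes lie near 0, among them Ptgfrn at 0.08 and Lamp1 at 0.01.

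The profile of Cd9 over the 9 libraries was most like those of Hebp1, Laptm4a and Txndc17, with Euclidean distances of 0.157, 0.217 and 0.218 between log2 CPM profiles centred on their own mean, among the 5704 genes whose mean log2 CPM reached 5. Among the members that reached this level, the nearest to Cd9 was Cd53, at 0.285. For Cd63 the most like were Emb (0.62), Gal (0.889) and Tmem120a (0.895), and the nearest member was Cd37, at 1.07. These distances describe the libraries, which share depth and scaling, and were not tested.

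Markers of other cells that carry tetraspanins were low. The summed level of 7 B cell markers, cells rich in Cd37, Cd53 and Cd81, was 4.93 to 19.3 CPM (wild type) against 6.52 to 13.2 CPM (knockout), with no marker called. That of 6 platelet and megakaryocyte markers, cells rich in Cd9 and Tspan9, was 1.12 to 2.99 and 0.961 to 3.26 CPM, again with no marker called. Neutrophil markers summed to 42 to 52.2 CPM (wild type) against 57.1 to 180 CPM (knockout) (exact permutation p = 0.0159, adjusted p = 0.0794 over 10 lists), with the highest sum in knockout library 3. Of 5 tested markers 1 was called higher (Csf3r), against 8.97% of all tested genes. In knockout library 3 S100a8 was at 101 CPM, while Elane was at 0 and Ly6g at 0.0211 CPM or less in every library. Sums for T and NK cells were 0.954 to 9.72 and 0.721 to 10.6 CPM, with Ncr1 at 0 throughout, and for interstitial macrophages and monocytes 25.3 to 45.1 and 11.6 to 54.4 CPM. Dendritic cell markers gave 6.13 to 22.8 and 2.43 to 9.16 CPM (exact permutation p = 0.0397, adjusted p = 0.132), endothelial markers 1.05 to 4.81 and 4.42 to 6.49 CPM (exact permutation p = 0.0159, adjusted p = 0.0794), epithelial markers 13.2 to 34 and 14.4 to 59.3 CPM, and fibroblast markers 0 to 5.77 and 4.17 to 9.53 CPM. Of 6 tested dendritic cell markers 1 was called lower (Ccr7), against 11% of all tested genes. The 12 alveolar macrophage markers summed to 23869 to 62259 and 16427 to 42899 CPM. The part of any of these in the tetraspanin values was not tested.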

How the data were processed

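Whole-number counts per gene, with the Entrez identifier and gene length, were deposited by the authors in a joint table of 9 libraries and in 9 single tables with equal counts, so the joint table was used. They were made with featureCounts on mm10, per the submitters' processing notes. The aligner, annotation release, strand setting and treatment of reads with several matches were not given in the sources used here. A RefSeq table of GRCm38.p6, the assembly behind mm10, named 25275 identifiers.

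Counts were tested in R 4.3.3 with edgeR 4.0.16 (TMM scaling, filterByExpr, robust glmQLFit, no covariate, Benjamini-Hochberg adjustment over 12840 genes), after tests on simulated data. The SE of a log2 fold change comes from the test statistic. Log2 CPM uses a prior count of 2. Marker sums were compared by two-sided exact permutation over 126 splits, on log2(CPM + 0.1). Alternatives were RLE and library size scaling, DESeq2 1.42.0, limma 3.58.1 voom, other filters, a loess offset (span 0.5) on gene length centred per library, each library left out, and the replicate number as a block.

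The members and lists were chosen with earlier results of these data known. The rule for other named genes took Suz12, the tested tetraspanins, up to 5 called genes of smallest adjusted p and a few set genes from the partner and vesicle lists, neighbours of Cd9, Cd81 and Tspan32, and the 3 profiles most like Cd9 and Cd63. Total counts limit precision as given in the report. A gene of the partner list that is counted there is not reported here by name.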

Additional observations from a re-analysis of the deposited data

Results flagged for a closer look

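Among 38 groups of libraries examined (19 tested tetraspanin genes in 2 groups), 5 held a library far from the others of its group. The rule flags about 1 in 20 groups of independent, normally spread values. The groups here share libraries and some flags rest on counts of 0, so the number of flags is not read against that rate. Values are log2 CPM. In knockout library 3, Cd63 was at 7.98 (the others 6.71 to 6.91) and Tspan4 at 4.95 (the others 3.83 to 4.15). In wild type library 4, Tspan2 was at -3.92, the value of 0 counts (the others -0.08 to 0.57). In wild type library 3, the shallowest, Tspan17 was at 2.01 (the others 3.37 to 3.59), and Tspan33 at -0.36, where the other wild type libraries had 0 counts (-3.92).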

How the results depend on the processing

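Over 17 alternatives the lower calls of the members numbered 4 each time. The higher calls numbered 3 except with a library left out (1 to 3), where Cd37 or Cd82 was lost. With each library left out, calls numbered 772 to 1434 higher and 1074 to 1521 lower over all genes, 1 to 2 and 0 to 1 for other tetraspanins, 3 to 7 and 0 to 3 for partners, and 3 to 4 and 3 to 3 for vesicle genes. Other tetraspanins called higher numbered 3 with DESeq2, 2 with voom and 3 with no filter, and none was called lower (0) with the length offset. Library size scaling gave 8 partner genes higher and 0 lower, 7 vesicle genes higher, and 1960 genes higher over all genes (1013 lower, so that 65.9% of calls were higher against 45%), and the median over all genes went from 0.04 to 0.15 (log2). The length offset gave 1 partner lower, 5 vesicle genes higher and 871 of all genes lower (58.1% of calls higher). DESeq2 called 1743 genes higher.

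Deviations of same-numbered libraries correlated weakly (0.0364, 0.0324, -0.0565 and 0.115), and 1 of 4 wild type libraries correlated best with its own number. These values show no clear pairing by replicate number but cannot exclude it. With the replicate block over libraries 1 to 4 of each group, 741 genes were higher and 1121 lower, and partner genes called higher dropped to 2, while the same 7 members were called. Itga3, Vcam1 and R74862 had no value under 6 alternatives each (the stricter filter, the block and 4 with a knockout library left out), and Tspan33 none under the stricter filter, as they did not pass the count filter there.

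Of 899 values of 54 named genes, 823 kept direction and side of the threshold, 59 lost the call, 7 gained it and 10 changed sign. Besides Fcer1g (0.19 with the length offset), those that changed sign were near 0. They were Cd81 (0.02 with library size scaling, 0.07 with the length offset), Pdcd6ip and Ptgfrn (both -0.02) and Tspan5 (-0.007) with the length offset, Tspan5 without wild type library 2 (-0.03), and Lamp1 without wild type library 3 (-0.0018), knockout library 1 (-9.2e-06) or knockout library 3 (-0.03). The cause was not tested.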
